A study of Mus musculus with 6 samples.

Results

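The S100 calcium-binding proteins described here are the products of 8 genes, S100a1, S100b, S100a4, S100a6, S100a10, S100a11, S100a13 and S100a16, found by their symbols among the 15803 genes of an RNA-seq table of mouse growth plate cartilage. All 8 reached a mean of 1 CPM and were tested among 12155 genes. CPM is the number of reads on a gene per 1000000 reads on all genes of the table. RNA was taken from the growth plate of embryos at E18.5 and sequenced as mRNA in 6 libraries. Col2a1-Cre;Hnrnpk fl/fl embryos gave the 3 libraries labelled CKO, and Hnrnpk fl/fl embryos without Cre gave the 3 labelled WT. In CKO embryos Cre is made under a Col2a1 promoter, active in chondrocytes, and deletes the loxP-flanked exons of Hnrnpk, an RNA-binding protein, while both groups carry the floxed alleles. Embryos of both sexes were used. The labels do not state that each library is a separate embryo, so p-values measure the spread between these libraries, which may be technical. The libraries held 1153871 to 1454094 reads, so that 1 read was worth 0.688 to 0.867 CPM. Hnrnpk was at 842, 955 and 944 CPM in WT against 759, 949.9 and 779.98 CPM in CKO, with overlap (log2 fold change -0.14, standard error 0.15, limma's adjusted p = 0.622), so this gene-level value does not tell the labels apart.

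S100 proteins are small proteins with EF-hands, the helix-loop-helix motif that binds calcium. They work mostly as dimers that open on calcium binding and expose a surface for partner proteins such as annexins, myosins and Mdm2. Some also leave the cell and bind receptors such as Ager (RAGE). In cartilage S100a1 and S100b are known as genes switched on by Sox9 together with Sox5 and Sox6, and their antibodies are used to mark chondrocytes, while S100a4, S100a6, S100a10 and S100a11 are widespread in fibroblasts, epithelia and tumour cells. Most genes of the family lie side by side on mouse chromosome 3, and S100b lies alone on chromosome 10.

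The 8 genes did not move together. S100a6 was 4.16-fold and S100a4 3.95-fold higher in the libraries labelled CKO, S100a13, S100a11 and S100a16 were 2.14-fold, 2.11-fold and 1.97-fold higher, and S100a1 was 2.62-fold lower (limma on log2(CPM + 1), each with an adjusted p under the threshold of 0.05). S100a10 and S100b did not pass the test. Thus 5 of 8 genes rose, beside 3.18% of all genes tested, and 1 of 8 fell, beside 2.6% of all genes tested. For 6 of the 8 genes all CKO values lay on one side of all WT values, which was so for 27.7% of all genes tested. With 1 library left out, the number of genes that rose was 2 without WT 1, WT 2 or CKO 3 and 4 or 5 without any other library, while S100a1 fell in every such fit. The median log2 fold change was 1.03 over the 8 genes and 0.01 over all genes tested.

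The study's own criterion, an unadjusted p under 0.05 with a log2 fold change beyond 1 in either direction, was met by 4 of the 8 genes in the higher direction (5.3% of all genes tested) and by 1 in the lower direction (5.1% of all genes tested). S100a16 is the gene that passed the adjusted threshold without meeting this criterion. All 4 shares of all genes come from the same fit. Counts at an unadjusted limma p under 0.05 alone are also given for the lists below, and many genes meet that threshold. By p, S100a10 (limma, unadjusted p = 0.0394) held place 1215 among all genes with a higher mean in CKO. S100b (limma, unadjusted p = 0.0449) held place 1185 among those with a lower mean. At least 1215 of the 12155 genes tested were thus higher, and at least 1185 lower, at that threshold.

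**Figure D1:**
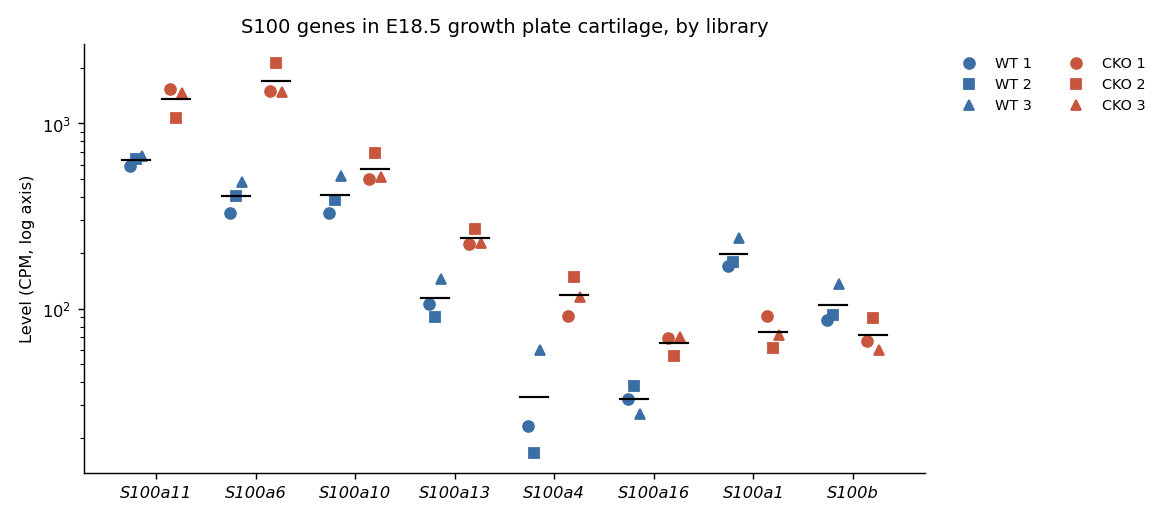
CPM of the 8 S100 genes (log axis) in each of 6 libraries, WT in blue and CKO in red, with the replicate number shown by the symbol and the mean of 3 libraries by a black line. S100a6 lies at 329.8 to 479.8 CPM in WT against 1473 to 2108 in CKO, whereas S100a1 lies at 170.3 to 241 CPM in WT against 61.4 to 90.8 in CKO.

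Positions were taken by Ensembl identifier from GENCODE M21 on GRCm38, since the table itself holds none. S100a1 lies on the minus strand of chromosome 3 from 90511034 to 90514392 and S100a13 on the plus strand from 90514435 to 90524581, so that these genes start back to back. Only 42 bases separate their annotated starts, and they are shown because the genes on either side of them moved in opposite directions. Upstream stretches of S100a6 and S100a4, which had the highest fold changes, and of S100a11, which had the highest level in WT, are given as well. All are on the plus strand of GRCm38 (RefSeq promoter table, GRCm38.p6), 5′ to 3′, and end just before the GENCODE start of the gene. Capitals mark a TATA box (TATAAA) and the other-strand copy of a SOX core (ACAAT) in S100a4, and AP-1 sites (TGANTCA, which reads alike on both strands) in S100a11.
Between S100a1 and S100a13, chr3:90514393-90514434: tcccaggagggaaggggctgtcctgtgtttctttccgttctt
S100a6, chr3:90612782-90612881: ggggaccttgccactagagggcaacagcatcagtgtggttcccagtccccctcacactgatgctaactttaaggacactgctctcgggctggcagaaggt
S100a4, chr3:90603671-90603770: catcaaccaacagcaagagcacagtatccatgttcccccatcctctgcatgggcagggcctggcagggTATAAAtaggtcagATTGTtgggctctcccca
S100a11, chr3:93520338-93520487: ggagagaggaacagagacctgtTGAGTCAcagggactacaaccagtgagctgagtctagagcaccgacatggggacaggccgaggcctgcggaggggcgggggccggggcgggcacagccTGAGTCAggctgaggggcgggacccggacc

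The motifs searched on both strands in the 250 bases before each RefSeq start were the TATA box TATAAA (held by 12.4% of all 32851 promoters of the table), the SOX core ACAAT (27.7%), the AP-1 site TGANTCA (6.75%), the GC box GGGCGG (32.7%) and the hypoxia response core ACGTG (16.6%). S100a10 has no entry in the promoter table and was not searched. The RefSeq starts of some members, S100a1 and S100a11 among them, differ from the GENCODE starts used for the stretches above. Distances below are from the RefSeq start and need not match positions in those stretches. Among the other 7 members the TATA box was found in S100a4 alone, 31 bases before the start. TGANTCA was found in S100a11, 136 and 38 bases before the start, and in 1 of the 2 starts listed for S100a16. S100a11 also held 3 GC boxes, at 64, 52 and 24 bases before the start, and an ACGTG, overlapping its other-strand copy, 222 bases before the start. S100a4 held 2 copies of ACAAT on the other strand, and the same start of S100a16 held a GC box 30 bases before it and a copy of ACAAT on the other strand 96 bases before it. None of these letters was found in the windows of S100a1, S100a13, S100a6 and S100b. A match describes the letters of this window and is not evidence of a bound factor.

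S100a1 and S100b, the members known as chondrocyte genes, were both lower on average in the libraries labelled CKO, and S100a1 passed the test. S100a1 (ENSMUSG00000044080), best known from heart muscle, where it regulates calcium cycling, was at 170.3, 179 and 241 CPM in the libraries labelled WT 1, 2 and 3 and at 90.8, 61.4 and 71.9 CPM in those labelled CKO 1, 2 and 3. Every CKO value was below every WT value. The means were 197 ± 38.3 CPM against 74.7 ± 14.9 CPM (SD, n = 3 libraries each), which gave a log2 fold change of -1.39 with a standard error of 0.21 (limma, adjusted p = 0.00505). These values rest on 759 reads in WT and 300 reads in CKO.

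S100b (ENSMUSG00000033208; GRCm38 chromosome 10, 76253853 to 76261159, plus strand), the glial S100 protein, was at 86.3, 92.3 and 136 CPM in WT against 66.7, 89.5 and 59.8 CPM in CKO. The genotypes overlapped, because CKO 2 lay within the WT range. The log2 fold change was -0.53 (standard error 0.23), with a 95% interval of -1.04 to -0.01, and did not pass the adjusted threshold (limma, unadjusted p = 0.0449, adjusted p = 0.220). S100b therefore had a smaller estimate than S100a1, but the difference between these fold changes was not tested. In fits that each left out 1 library, the log2 fold change of S100a1 ran from -1.54 to -1.23 and passed the threshold in 6 of 6 fits, and that of S100b ran from -0.69 to -0.33 and passed in 0 of 6.

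The other genes of chondrocyte identity were measured beside them. In a list of 13 cartilage genes, 9 fell and 0 rose with limma, beside 2.6% lower and 3.18% higher among all genes tested. At an unadjusted p under 0.05, 10 were lower and 0 higher. With 1 library left out, a check made after the data were seen, 7 to 10 fell and 0 rose. Matn3 passed in 1 of 6 such fits and Col2a1 in 3 of 6, and Matn3 also lost its call with a pseudocount of 0.1. Matn1 and Comp, which encode cartilage matrix proteins, had log2 fold changes of -3.76 (standard error 0.21) and -3.08 (0.17), and Cnmd (chondromodulin) and Col9a1 had -2.68 (0.21) and -2.50 (0.22), with limma's adjusted p of 2.26e-05, 2.26e-05, 1.39e-04 and 3.58e-04. The summed CPM of the list was 24615 to 30600.4 in WT and 5646 to 5866 in CKO. Sox9 itself was at 68.1, 81.8 and 102 CPM in WT against 42.0, 73.6 and 32.1 CPM in CKO, with overlap, and did not pass the test (log2 fold change -0.83, standard error 0.29, limma's adjusted p = 0.137). Sox5 and Sox6 did not pass either, at log2 fold changes of 0.50 (standard error 0.34) and -0.36 (0.28), with limma's adjusted p of 0.439 and 0.511. Hapln1, also in the list, had -0.20 (standard error 0.16, limma's adjusted p = 0.518). In bulk RNA, fewer cells of a type and less RNA per cell cannot be told apart.

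S100a13, whose gene starts back to back with S100a1, moved the other way. The protein has no signal sequence and is known to travel with Fgf1 and Il1a as they leave the cell. S100a13 (ENSMUSG00000042312) was at 106, 90.1 and 145 CPM in WT against 223, 271 and 227 CPM in CKO. All CKO libraries were above all WT libraries, at 240.2 ± 26.5 against 114 ± 28.5 CPM (SD, n = 3 libraries each), which gave a log2 fold change of 1.09 with a standard error of 0.20 (limma, adjusted p = 0.0126). The ratio of S100a13 to S100a1 CPM was 0.621, 0.502 and 0.604 in WT and 2.45, 4.41 and 3.16 in CKO. This ratio of reads, not corrected for length, was below 1 in every WT library and above 1 in every CKO library. The adjusted p of S100a13 rose above the threshold without WT 1 (0.0716), without WT 2 (0.0704) and without CKO 3 (0.0536).

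To set this pair beside others, protein-coding genes that start back to back with less than 1000 bases between them were listed. Of 742 such pairs, 561 had both genes tested and 6 had both genes past the adjusted threshold. In 2 of these 6 the genes went opposite ways, namely S100a1 with S100a13 and Hnrnph3 with Pbld2, and in the other 4 they went the same way. Fgf1 was near the lower limit of the data at 0 to 1.69 CPM in WT against 0 to 3.61 CPM in CKO, where 3 reads correspond to 2.06 to 2.60 CPM, and Il1a is not listed.

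S100a6 showed the highest fold change of the family in the fit of all 6 libraries. Calcyclin, its product, appears in cells that enter the division cycle and binds Cacybp and Sugt1, which act in protein degradation and chaperone complexes. S100a6 (ENSMUSG00000001025; chromosome 3 of GRCm38, 90612882 to 90624181) stood at 329.8, 405 and 479.8 CPM in WT against 1492, 2108 and 1473 CPM in CKO. The lowest CKO library was far above the highest WT library. The means were 405 ± 75.0 and 1691 ± 361 CPM (SD, n = 3 libraries each), which gave a log2 fold change of 2.06 with a standard error of 0.19 (limma, adjusted p = 5.87e-04), and S100a6 held place 6 by p among all genes with a higher mean in CKO. The call held in 6 of 6 fits with 1 library left out, at a log2 fold change of 1.89 to 2.19. The difference between S100a6 and S100a4 was not tested. S100a4 had the higher estimate without WT 3 (2.51 against 2.19) and without CKO 1 (2.16 against 2.14).

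S100a4 (ENSMUSG00000001020; GRCm38 chromosome 3, 90603771 to 90606045) lies beside S100a6 and the nearly silent S100a5, and its product binds non-muscle myosin and is linked to cell movement and metastasis. Its values were 23.2, 16.5 and 60.0 CPM in WT against 90.8, 149 and 115 CPM in CKO. The genotypes did not overlap, but WT 3 was well above the other two WT libraries, and the gene had the largest standard error of the 8. The means were 33.2 ± 23.4 and 118 ± 29.1 CPM (SD, n = 3 libraries each), which gave a log2 fold change of 1.98 with a standard error of 0.40 (limma, adjusted p = 0.0195). The call was lost without WT 1 (adjusted p = 0.10), without WT 2 (0.0849) and without CKO 3 (0.0764), at log2 fold changes of 1.61 to 2.51 over the 6 fits, and without WT 3 it held at the highest of these values. S100a4 shares 302 exon bases with Gm42674, a readthrough gene on the same strand that was given 20 reads in WT and 47 in CKO beside 125 and 471 reads for S100a4, so reads in the shared exons could have been split or dropped. Gm42674 was chosen after its values were seen.

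S100a16 (ENSMUSG00000074457; GRCm38 chromosome 3, 90537254 to 90543151), a widely expressed member with a degenerate first EF-hand, was at 32.6, 38.3 and 27.0 CPM in WT against 69.5, 55.6 and 70.2 CPM in CKO. The groups did not overlap. The means were 32.6 ± 5.62 and 65.1 ± 8.24 CPM (SD, n = 3 libraries each), which gave a log2 fold change of 0.98 with a standard error of 0.22 (limma, adjusted p = 0.0273). This was the weakest of the 6 calls. It was lost without WT 1 (adjusted p = 0.104), WT 2 (0.0665), WT 3 (0.0625), CKO 1 (0.113) or CKO 3 (0.124), although the log2 fold change stayed between 0.85 and 1.10.

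S100a10 and S100a11 are the classical annexin partners. S100a11 (ENSMUSG00000027907; GRCm38 chromosome 3, 93520488 to 93526287), which binds Anxa1, was at 591, 646 and 667 CPM in WT against 1536, 1070.4 and 1457 CPM in CKO. Every CKO library was higher than every WT library, and CKO 2 was the lowest of the CKO libraries. The means were 635 ± 39.6 and 1355 ± 249 CPM (SD, n = 3 libraries each), which gave a log2 fold change of 1.08 with a standard error of 0.17 (limma, adjusted p = 0.00554), and the call held in 6 of 6 fits with 1 library left out. The transcripts of S100a11 have 5 near-identical copies among other annotated transcripts (at least 90% identity over at least 100 bases), and 0 of these copies is listed in the table.

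S100a10 (ENSMUSG00000041959; chromosome 3 of GRCm38, 93555080 to 93564643), also called p11, has lost calcium binding and forms a tetramer with Anxa2 at the cell membrane. It was at 327, 385 and 523 CPM in WT against 500.0, 695 and 514 CPM in CKO. The groups overlapped, since WT 3 was above CKO 1 and CKO 3. The log2 fold change was 0.48 (standard error 0.20), with a 95% interval of 0.03 to 0.93 (limma, unadjusted p = 0.0394, adjusted p = 0.207), and it passed in 0 of the 6 fits with 1 library left out.

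**Figure D2:**
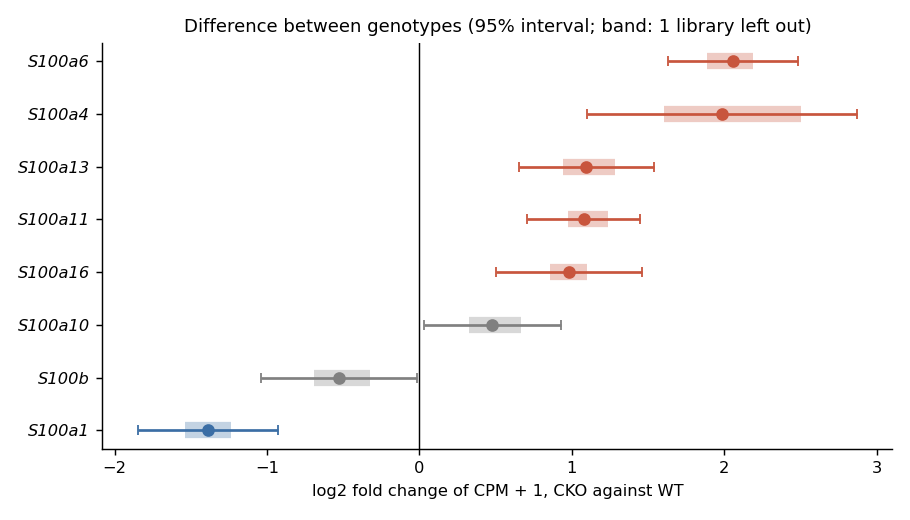
Log2 fold change of CPM + 1 (CKO against WT, x axis) for each S100 gene, with points for the limma estimate, bars for its 95% interval and shaded bands for the range over 6 fits that each left out 1 library. Red and blue genes passed the adjusted threshold and grey genes did not, and the estimates run from -1.39 for S100a1 to 2.06 for S100a6.

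S100 genes are also expressed in other cells of a limb, and markers of such cells were counted. Beside these counts, 3.18% of all genes tested were higher and 2.6% lower at the adjusted threshold with limma. Of keratinocyte, adipocyte, endothelial, skeletal muscle and erythroid markers, 0 of 2, 0 of 5, 0 of 1, 0 of 5 and 0 of 1 tested genes passed with limma (1 muscle gene had an unadjusted p under 0.05), and edgeR and DESeq2 each called 0 of the 2, 4, 1, 3 and 0 genes they tested. The skin keratins Krt5 and Krt14 are not listed. Of Schwann and glial markers, 1 of 4 passed (Pmp22, lower), while Sox10 was at no more than 2.17 CPM in any library. Of macrophage and neutrophil markers, 1 of 6 passed (Cd68, log2 fold change 2.74), with the sum of the list at 63.1 to 297 CPM in WT against 179 to 202 CPM in CKO. Ptprc was at 0.722 CPM in CKO 2 and at 0 in all other libraries. Lyz2, the most abundant gene of the list, was at 51.5, 54.8 and 270 CPM in WT against 111, 105 and 115 CPM in CKO. It did not pass (log2 fold change 0.26, standard error 0.51, limma's adjusted p = 0.810). Of fibroblast and perichondrium markers, 2 of 7 fell (Col1a2 and Dcn), with a sum of 3978 to 6440 CPM in WT against 1680 to 3076 CPM in CKO. Of osteoblast and of hypertrophic chondrocyte markers, 1 of 6 each rose (Spp1 in both lists, log2 fold change 2.84), with the osteoblast list at 1205 to 3908 CPM in WT against 11895 to 12926 CPM in CKO. Spp1 makes up most of that sum, and without it the list stood at 167, 118 and 139 CPM in WT against 781, 100.3 and 881 CPM in CKO, where CKO 2 lay below every WT library. The hypertrophic list without Spp1 stood at 433, 383 and 825 CPM in WT against 2928, 515 and 3166 CPM in CKO, where CKO 2 lay below WT 3. At an unadjusted p under 0.05, 2 osteoblast and 3 hypertrophic markers were higher and 0 lower, and 4 fibroblast markers were lower and 0 higher. Mmp13 and Ibsp did not pass (log2 fold changes 1.81 and 1.78, limma's adjusted p = 0.118 and 0.166). With all genes included, WT 3 had the highest WT sum in the adipocyte, muscle, macrophage, Schwann, fibroblast, osteoblast, hypertrophic and chondrocyte lists. It was not the highest in the keratinocyte, endothelial and erythroid lists. Adipocyte markers were at 724 CPM in WT 3 against 293 and 295 CPM in WT 1 and WT 2, and muscle markers at 134 CPM against 55.8 and 32.3 CPM. CKO 2 stood apart from CKO 1 and CKO 3, with adipocyte markers at 139 CPM against 749.6 and 695 CPM, fibroblast markers at 1680 CPM against 3076 and 3049 CPM, and Mmp13, a gene of late hypertrophic chondrocytes, at 377 CPM against 2155 and 2301 CPM. The calls of Pmp22 and Col1a2 were lost in 4 and in 2 of the 6 fits with 1 library left out (adjusted p of up to 0.103 and 0.0863). The part of these cell types in the values of the S100 genes was not tested.

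The makeup of the S100 reads differed between the genotypes. The summed CPM of the 8 genes was 1666, 1853 and 2279 in WT and 4069, 4499.6 and 3988 in CKO. S100a1 and S100b together held 15.4, 14.7 and 16.5% of this sum in WT and 3.87, 3.35 and 3.30% in CKO, a difference of -12.0 percentage points, or -11.2 points with CPM divided by exon length. A share also falls where the CPM of the other genes in the sum rises. S100b alone held 5.38% ± 0.522 in WT and 1.71% ± 0.252 in CKO (SD, n = 3 libraries each), although its CPM overlapped between the genotypes. The share of S100a6 was 20.9% ± 1.04 in WT and 40.2% ± 5.80 in CKO (SD, n = 3 libraries each). S100a10 had a share of 21.1% ± 1.68 in WT and 13.5% ± 1.68 in CKO, although its CPM was higher on average. The shares of S100a11 (33.2% ± 3.41 and 32.7% ± 7.73), S100a13 (5.86% ± 0.868 and 5.73% ± 0.272) and S100a16 (1.74% ± 0.480 and 1.57% ± 0.289) differed by less than their spread. These shares describe 8 genes chosen with earlier results of these data known and carry no p.

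Within a genotype the ratio of S100a6 to S100a10 was steadier than either gene. It was 1.01, 1.05 and 0.918 in WT and 2.98, 3.03 and 2.87 in CKO, although CKO 2 had the highest CPM of both genes. S100a6 to S100a4 was 14.2, 24.5 and 8.0 in WT and 16.4, 14.2 and 12.8 in CKO, and these groups overlapped. S100a6 to S100a1 was 1.94, 2.26 and 1.99 in WT and 16.4, 34.4 and 20.5 in CKO. Within CKO, CKO 2 had the highest S100a6, S100a4, S100a10, S100a13 and S100b and the lowest S100a11, S100a16 and S100a1. CKO 2 also had the lowest summed adipocyte and fibroblast markers of the CKO libraries, given with the other cell types, and their part in this was not tested.

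**Figure D3:**
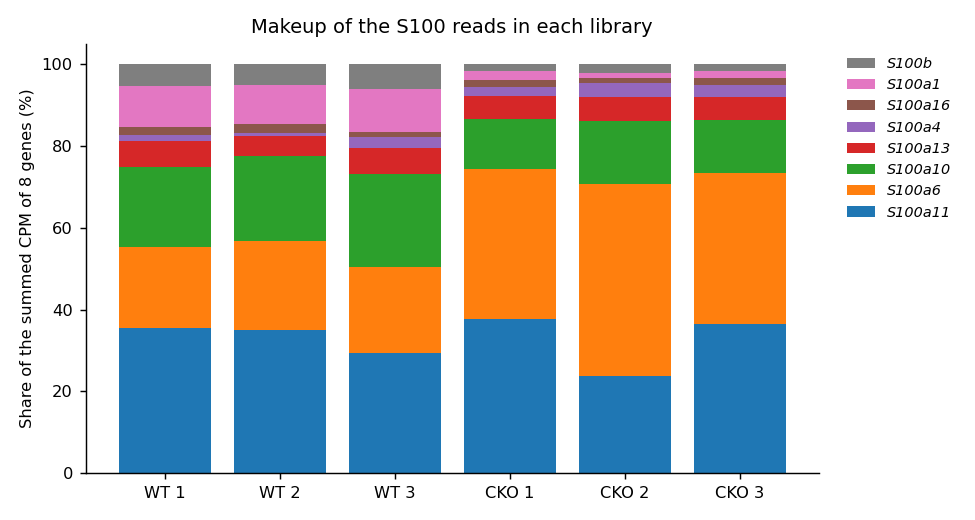
Share of the summed CPM of 8 S100 genes (y axis, %) held by each gene in each of 6 libraries, as stacked bars. S100a6 and S100a11 together hold 50.3 to 56.7% in WT and 70.6 to 74.4% in CKO, while S100a1 and S100b hold 14.7 to 16.5% and 3.30 to 3.87%.

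The order of the levels was taken from CPM per kilobase of exon. In WT, S100a11 was highest at 1242 ± 77.4 CPM per kilobase, followed by S100a10 at 339.6 ± 83.1, S100a6 at 296 ± 54.9 and S100a1 at 284 ± 55.2 (SD, n = 3 libraries each), and these last 3 overlapped. S100a13 followed at 159 ± 39.8, S100b at 70.7 ± 18.3 and S100a4 at 56.9 ± 40.1, of which S100b and S100a4 overlapped, and S100a16 was lowest at 20.2 ± 3.48. In CKO the order of levels per kilobase was S100a11 (2651 ± 488), S100a6 (1237 ± 264), S100a10 (470.0 ± 89.8), S100a13 (336 ± 37.0), S100a4 (202 ± 49.8), S100a1 (108 ± 21.5), S100b (48.5 ± 10.5) and S100a16 (40.2 ± 5.09), and among neighbours in this order the ranges of S100b and S100a16 alone overlapped. S100a1 held place 4 in WT and place 6 in CKO, and S100a4 held place 7 in WT and place 5 in CKO.

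The exon length of S100a6 (1367 bases) and S100a16 (1617 bases) includes exons of several transcripts. With the median transcript length of each gene, a setting chosen after the data were seen, S100a6 stood at 2831 CPM per kilobase in CKO, above S100a11 at 2651. In WT it then stood at 678, close to S100a10 at 674. S100a4 was then above S100b in WT, at 79.7 against 70.7, and S100a16 above S100b in CKO, at 81.2 against 48.5. S100a1 kept place 4 and place 6.

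Of the other S100 genes, 8 were listed in the table (S100a2, S100a3, S100a5, S100a7a, S100a8, S100a14, S100g and S100z) and none was tested. None had more than 2 reads in a library or 4 reads in all. S100a8, an abundant protein of neutrophils, had 1 read in WT 1 and 0 in the other libraries. S100a14, a gene of epithelia that lies between S100a13 and S100a16, had 1 read in WT and 3 in CKO. Genes at this depth allow no statement on a difference. Of the fused-type S100 genes of the skin, Tchh was tested and did not pass (log2 fold change 0.92, standard error 0.53, limma's adjusted p = 0.352).

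The other genes of this stretch of chromosome 3 were examined too. Between S100a1 and S100a10, over 3053.6 kb, GENCODE lists 75 protein-coding genes, among them many genes of the skin barrier, and 49 are not listed in the table. Of 11 tested genes there, 7 were members and 4 were other genes, Tchh among them, and 0 of these 4 passed the adjusted threshold with limma, while 2 had an unadjusted p under 0.05. DESeq2 called 1 of the 2 it gave an adjusted p for, the skin gene Lce3c, at a mean of 0.483 CPM in WT and 14.9 CPM in CKO (limma's adjusted p = 0.101), and edgeR called 0 of 1. Crct1, also in this stretch, had 0 reads in WT and 23 in CKO and did not pass with limma (log2 fold change 2.29, standard error 0.69, adjusted p = 0.0832). Lce3c and Crct1 were chosen after their values were seen. Among the 5 nearest tested genes on each side, 0 of 10 passed with limma and 2 had an unadjusted p under 0.05, and edgeR and DESeq2 each called 0 of the 8 they tested. Within about 110 kb from the S100a1 start, the order along the chromosome was S100a1 (lower), S100a13, S100a16, S100a4 and S100a6 (all higher), and the nearly silent S100a14, S100a2, S100a3 and S100a5 lay among them. S100a11 and S100a10 lie about 3 megabases further on.

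**Figure D4:**
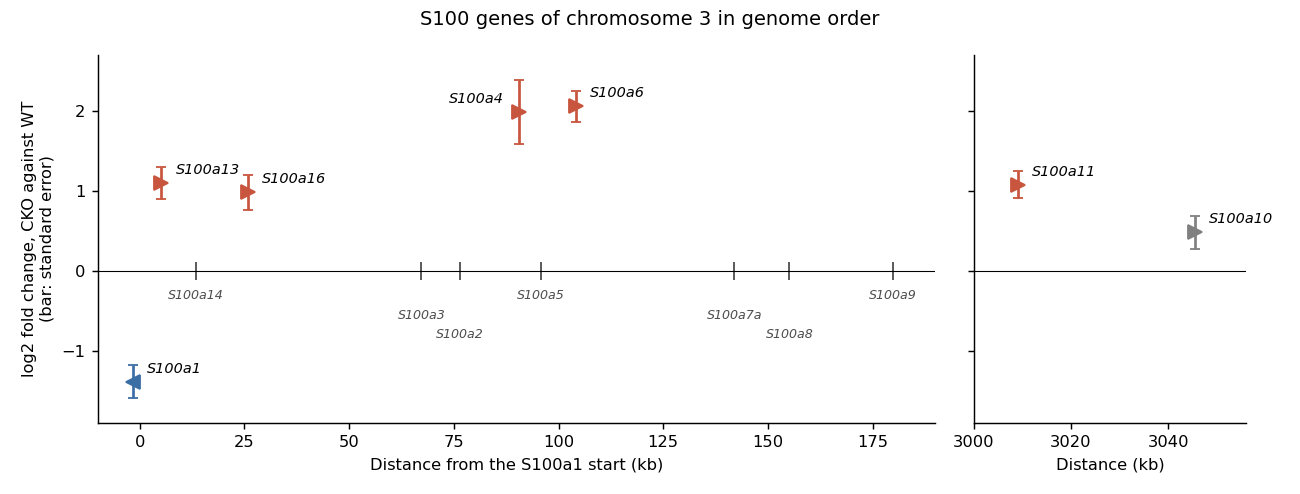
S100 genes of chromosome 3 at their distance from the S100a1 start (x axis, kb, in 2 windows) against their log2 fold change (y axis, bars for the standard error). Arrowheads point along the strand, red and blue mark genes past the adjusted threshold, grey marks S100a10, and ticks on the zero line mark genes with too few reads or no row, for which no fold change is drawn. S100a1 at -1.39 and S100a13 at 1.09 lie next to each other on opposite strands.

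Annexins, calcium-dependent membrane proteins that pair with S100 dimers, were followed as a list of 9 genes. Of these, 5 rose and 0 fell in CKO with limma, beside 3.18% higher and 2.6% lower among all genes tested. At an unadjusted limma p under 0.05, 1 was lower, and the median log2 fold change of the list was 0.91. Anxa1, a partner of S100a11, was at 352, 392 and 352 CPM in WT against 1421, 1065 and 1569.5 CPM in CKO, which gave a log2 fold change of 1.87 with a standard error of 0.17 (limma, adjusted p = 4.63e-04). Anxa2, the partner of S100a10, was at 2206, 2241 and 2018 CPM in WT against 4118, 3755 and 4267 CPM in CKO, which gave a log2 fold change of 0.91 with a standard error of 0.13 (limma, adjusted p = 0.00505). For both annexins all CKO libraries were above all WT libraries, which for S100a10 was not the case. Anxa3, Anxa8 and Anxa7 differed by 1.97, 1.94 and 0.93 on the log2 scale, at adjusted p of 0.00263, 9.01e-04 and 0.0102 in limma. The call of Anxa7 was lost without WT 1 or without CKO 3 (adjusted p of up to 0.0568), and the other 4 annexin calls held in 6 of 6 fits. Anxa4, Anxa5, Anxa6 and Anxa11 did not pass, and Anxa5, abundant in cartilage, differed by -0.10 on the log2 scale (standard error 0.18).

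The ratio of S100a11 to Anxa1 CPM was 1.68, 1.65 and 1.89 in WT and 1.08, 1.01 and 0.928 in CKO, with no overlap. The ratio of S100a10 to Anxa2 was 0.148, 0.172 and 0.259 in WT and 0.121, 0.185 and 0.120 in CKO, with overlap. Anxa1 was thus higher relative to S100a11 in CKO, and for S100a10 and Anxa2 the ratios lay within the spread of the libraries.

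**Figure D5:**
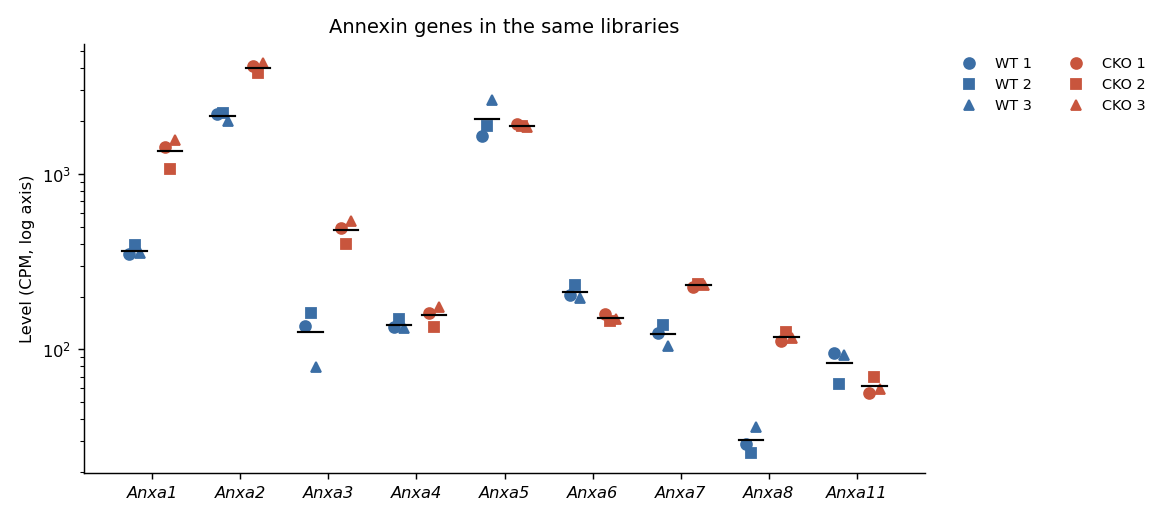
CPM of 9 annexin genes (log axis) in the same 6 libraries, drawn as for the S100 genes, with black lines for the mean of 3 libraries. Anxa1, Anxa2, Anxa3, Anxa7 and Anxa8 are higher in every CKO library than in every WT library, and Anxa5 lies at 1655 to 2637 CPM in WT against 1861 to 1928 in CKO.

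Among 19 tested genes for intracellular targets of S100 proteins, 2 rose and 1 fell with limma, and the median log2 fold change was 0.22. Among all genes tested, 3.18% were higher and 2.6% lower. Mdm2, the ubiquitin ligase of p53, which several S100 proteins bind, was at 53.6, 52.5 and 41.4 CPM in WT against 168, 133 and 206 CPM in CKO, which gave a log2 fold change of 1.75 with a standard error of 0.21 (limma, adjusted p = 0.00196) and a call in 6 of 6 fits with 1 library left out. Dlc1, a tumour suppressor bound by S100a10, had a log2 fold change of 1.84 with a standard error of 0.43 (limma, adjusted p = 0.0346) at no more than 17.3 CPM, and Nucb1, a calcium-binding protein of the Golgi, had -0.75 (standard error 0.18, limma's adjusted p = 0.0396). The call of Dlc1 was lost in 4 of 6 such fits (without WT 1, WT 2, CKO 1 or CKO 3, with adjusted p of up to 0.128) and with a pseudocount of 0.1 (0.0502), and that of Nucb1 in 5 of 6 (all except the fit without CKO 2, with adjusted p of up to 0.163).

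The classical targets of S100a4 and S100a6 did not pass. Myh9, the myosin bound by S100a4, was at 77.4 ± 16.5 CPM in WT against 89.3 ± 10.4 CPM in CKO (SD, n = 3 libraries each). Cacybp and Sugt1, bound by S100a6, had log2 fold changes of 0.25 (standard error 0.18) and 0.35 (0.17), with limma's adjusted p of 0.463 and 0.250. These 3 genes were named for their roles after their values were seen.

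Among 10 tested genes for extracellular targets, 2 rose and 0 fell with limma, beside 3.18% higher and 2.6% lower among all genes tested. At an unadjusted limma p under 0.05, 4 were higher and 0 lower, and the median log2 fold change was 0.67. Cd44, a hyaluronan receptor, was at 15.9, 13.5 and 13.5 CPM in WT against 39.9, 39.0 and 35.5 CPM in CKO (log2 fold change 1.35, standard error 0.23, limma's adjusted p = 0.00936). Egfr was at 6.52, 8.25 and 11 CPM in WT against 35.8, 17.3 and 47.7 CPM in CKO (log2 fold change 1.77, standard error 0.38, limma's adjusted p = 0.0258). The call of Cd44 was lost without WT 2 or CKO 1 (adjusted p of up to 0.0526), and that of Egfr without WT 1, WT 2, CKO 1 or CKO 3 (adjusted p of up to 0.117). Ager, the receptor for S100b and other S100 proteins, was at 0, 0.750 and 2.53 CPM in WT against 5.50, 4.33 and 6.07 CPM in CKO and did not pass (limma's adjusted p = 0.0832). Among 21 tested genes of other EF-hand proteins, such as the calmodulins and Sparc, 0 passed with limma, and the median log2 fold change was -0.08. In limma 5 had an unadjusted p under 0.05, 2 of them higher and 3 lower. At least 1215 higher and 1185 lower genes of the 12155 tested met that threshold. Of the 17 they tested, edgeR and DESeq2 each called 0.

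For each S100 gene, the genes with the most similar pattern over the 6 libraries were sought by Pearson's r of log2(CPM + 1) among the 5014 genes whose mean was 20 CPM or more. The 6 points share libraries and genotype, and r is given as a description. S100a1 was closest to Sec24d (r = 0.998) and St6galnac6 (0.997), and S100b to Cd9 (0.997) and Dclk1 (0.990). S100a6 was closest to Tspo (0.997) and Cinp (0.996), S100a4 to Atp5g1 (0.998) and Carhsp1 (0.990), and S100a11 to Drg2 (0.996) and Rbpj (0.995). S100a10 was closest to Ezr (0.996) and Tm4sf1 (0.992), S100a13 to Psma6 (0.995) and Plaur (0.994), and S100a16 to Acot9 (0.999) and Mt1 (0.995). No gene stood among the 2 closest genes of more than 1 member. Of these 16 genes, Plaur, the urokinase receptor, had the highest log2 fold change (2.44, standard error 0.28, limma's adjusted p = 0.00161).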

How the data were processed

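The series holds 6 libraries of E18.5 growth plate cartilage, 3 labelled WT and 3 labelled CKO. The authors deposited CPM per gene, from a stranded mRNA kit; the submitters' processing notes name cutadapt 2.5, HISAT2 and featureCounts 1.6.3. The genome build, annotation and counting strand are not given in the sources used here. Each library summed to 1000000 CPM, and 100% of values were whole reads within 0.001 reads, so reads were recovered. Totals were 1153871 to 1454094 reads, and 3 reads equal 2.06 to 2.60 CPM, which covers counting error only.

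The 8 members and all gene lists were chosen with earlier results of these data known. Genotypes were compared with limma 3.58.1 (R 4.3.3) on log2(CPM + 1) over the 12155 genes whose mean reached 1 CPM, using trended empirical Bayes, and p-values were adjusted by Benjamini-Hochberg over all of them. Fold changes are on this scale and are understated for low genes. The fits were tested on simulated data. Alternatives were a pseudocount of 0.1, no filter, CPM rescaled by TMM factors, replicate number as a block, edgeR 4.0.16 (quasi-likelihood) and DESeq2 1.42.0 on recovered reads, and each library left out. For the share of S100a1 and S100b an exact permutation test was planned, and its p is not printed because the members were chosen with results known.

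Named were all 8 members, every other S100 gene listed, the annexins and targets past an adjusted p of 0.05, and for each member the 2 most similar genes. From other lists the plan was to name the 2 most abundant genes and up to 4 past that threshold. This was not followed in every list, and the most abundant adipocyte, skeletal muscle, keratinocyte and endothelial markers were not named. Other genes were named for their roles after their values were seen. Coordinates come from GENCODE M21 (GRCm38), promoters from RefSeq (GRCm38.p6; 7 of 8 members matched), and near-identical copies from BLAST 2.17.0.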

Additional observations from a re-analysis of the deposited data

How the results depend on the processing

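None of the 8 S100 genes reversed under 12 alternatives. S100a1, S100a6 and S100a11 passed the adjusted threshold in 12 of 12 alternatives, S100a4 and S100a13 in 9, S100a16 in 6, and S100b and S100a10 in 0. All 6 calls were made with a pseudocount of 0.1, no filter, TMM factors, edgeR and DESeq2. Leaving out 1 library gave log2 fold changes of 1.61 to 2.51 for S100a4, 0.94 to 1.28 for S100a13 and 0.85 to 1.10 for S100a16, of which 3, 3 and 1 of 6 fits passed. The number of members that rose was then 2 to 5, and it was 2 without WT 1, WT 2 or CKO 3, fits in which 218, 212 and 231 genes passed, beside 703 in all 6 libraries and 1298 without CKO 2. In lists tried this way after the data were seen, annexins that rose were 4 to 5, intracellular targets that rose 1 to 5 and that fell 0 to 1, and extracellular targets that rose 0 to 4. The cause was not tested.

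With the replicate block, S100a16 lost its call (log2 fold change 0.98, adjusted p = 0.0792), 4 members rose in place of 5, and 385 genes passed in all. Of the partners and markers named, Dlc1 (adjusted p = 0.0674), Nucb1 (0.0717), Pmp22 (0.0547) and Matn3 lost theirs. Libraries of the same number correlated at 0.04, -0.13 and -0.10 in their deviations from the group means. No library correlated best with the one of its own number, so the numbers were not taken to pair the libraries. DESeq2 called 649 genes and edgeR 737 of 7704 tested. The limits are 3 libraries per genotype, low depth for S100a4 and S100a16, and unknown counting of reads shared with Gm42674.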
